A study of Mus musculus with 9 samples.

Results

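The GIMAP genes encode GTPases of the immunity-associated protein family. The 8 members described here are Gimap1, Gimap3, Gimap4, Gimap5, Gimap6, Gimap7, Gimap8 and Gimap9. They were taken by symbol from the deposited table of normalized expression, where all 8 were found among 16409 genes, and all 8 passed the filter on low values that left 12555 genes for testing. Their levels were measured by RNA sequencing in regulatory T cells (Tregs, CD4+ GFP+ cells) sorted from tumours of wild-type C57BL/6 mice, grown from the mouse lung carcinoma line LLC (Lewis lung carcinoma). Each of the 9 libraries is a pool of 3 to 4 mice, and all tumours were taken on day 14. Mock denotes 3 pools from mock-transfected LLC tumours of untreated mice. The β8 isotype group is 3 pools from LLC tumours that express integrin subunit β8, in mice given an isotype antibody. The anti-β8 group is 3 pools from such β8 tumours in mice given the anti-β8 antibody C6D4, at 7 mg/kg by intraperitoneal injection, 2 times a week from day 7. The Mock mice received no antibody, so β8 on the tumour and antibody treatment cannot be told apart in either comparison with Mock. Nothing in the labels describes how GFP was expressed, whether the transfected lines were clones, how many cells were sorted or any batch.

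GIMAP proteins carry a GTP-binding domain and most sit on the membranes of intracellular organelles. They are expressed mainly in lymphocytes, where several members are needed for the survival of T cells, and they are also known in B, NK and endothelial cells. Integrin αvβ8 releases active TGF-β from its latent form, and the design asks how β8 on tumour cells, and an antibody against it, are reflected in the tumour's Tregs. Unless another scale is named, a level is given in normalized FPKM (fragments per kilobase of transcript at a common library size), a unit that allows levels of different genes to be compared per length. A log2 difference is a difference of group means of log2(FPKM + 1) from 1 limma model over all 9 libraries, and a gene passed where the Benjamini-Hochberg adjusted two-sided p was under 0.05.

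The members lie side by side on mouse chromosome 6 (build GRCm38, GENCODE M21), from the start of Gimap8 at 48647234 to the end of Gimap3 at 48770851. In that order the genes are Gimap8, Gimap9, Gimap4, Gimap6, Gimap7, Gimap1, Gimap5 and Gimap3, with Gimap6 and Gimap3 on the minus strand and the others on the plus strand. The P-loop, which holds the phosphates of the bound nucleotide, is a part of the GTP-binding domain. Gimap8, the longest member with 688 codons, has 3 such loops in its annotated coding sequence, and each other member, with 291 to 328 codons, has 1. The 24 coding bases of every loop are shown because they give the feature that the family shares, with capitals marking the codons of its first glycine and of its closing glycine, lysine and serine.
Gimap8 P-loop 1, chr6:48650256-48650279, plus strand: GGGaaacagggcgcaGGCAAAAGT
Gimap8 P-loop 2, chr6:48656119-48656142, plus strand: GGGaagcgtggtgttGGGAAAAGT
Gimap8 P-loop 3, chr6:48658746-48658769, plus strand: GGAaggagtggggctGGAAAGAGT
Gimap9, chr6:48677523-48677546, plus strand: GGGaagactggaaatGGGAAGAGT
Gimap4, chr6:48690421-48690444, plus strand: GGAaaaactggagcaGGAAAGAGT
Gimap6, chr6:48702750-48702773, minus strand: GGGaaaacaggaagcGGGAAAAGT
Gimap7, chr6:48723524-48723547, plus strand: GGGaaaacaggaagtGGAAAGAGC
Gimap1, chr6:48742552-48742575, plus strand: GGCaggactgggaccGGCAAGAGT
Gimap5, chr6:48752594-48752617, plus strand: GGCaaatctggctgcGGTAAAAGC
Gimap3, chr6:48765887-48765910, minus strand: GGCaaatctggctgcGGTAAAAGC
All loops ended in the same 3 residues, and among these sequences only those of Gimap3 and Gimap5 were identical over all 24 bases. Gimap3 and Gimap5 are near copies of each other. Their coding sequences were identical at 90.6% of 898 aligned bases, against 58.1% to 68.9% over the 20 other pairs among the 7 members without Gimap8. The longest run the pair shares is 140 coding bases, at chr6:48765681-48765820 in Gimap3 and chr6:48752684-48752823 in Gimap5. It is shown because a fragment that falls within it cannot be assigned to either gene.
Gimap3 and Gimap5 shared run: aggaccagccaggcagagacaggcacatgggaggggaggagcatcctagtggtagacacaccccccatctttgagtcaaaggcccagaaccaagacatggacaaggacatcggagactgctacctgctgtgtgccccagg
Of all 50-base stretches in the transcripts of a member, 8.15% in Gimap3, 6.84% in Gimap5, 5.94% in Gimap1 and 1.39% in Gimap7 also occurred in another gene, and at most 0.0565% did in the other members. For Gimap3 and Gimap5 the other gene was mainly the partner, with 190 stretches in common. The sources used here do not say how shared fragments were divided between genes, so the levels of Gimap3 and Gimap5 are uncertain to that extent.

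Within the Tregs 7 of the 8 members were abundant. In every library they lay between percentiles 80.2 and 97.6 of the 12555 genes, whereas Gimap8 lay between percentiles 28.8 and 66.9. Gimap5, a lysosomal GTPase whose loss depletes T cells in rats and mice, was highest over the 9 libraries at 315 ± 60.7 FPKM (SD, n = 9 pools). Gimap6, a partner of the autophagy protein GABARAPL2, followed at 278 ± 49.9, and Gimap4, an accelerator of T-cell death in mice, at 270.1 ± 73.1. The order among these was not fixed, since Gimap5 exceeded Gimap6 in 6 of 9 pools and Gimap6 exceeded Gimap4 in 6 of 9. Gimap7 stood at 161 ± 41.1 FPKM, Gimap3 at 149 ± 33.9 and Gimap1, which mature T and B cells of mice require, at 131 ± 22.3. Gimap4 exceeded Gimap7 in 9 of 9 pools, Gimap7 exceeded Gimap3 in 8 of 9, and Gimap3 exceeded Gimap1 in 6 of 9. Gimap9 at 72.9 ± 20.1 FPKM and Gimap8 at 10.1 ± 4.41 FPKM closed the order in 9 of 9 pools. Foxp3, the transcription factor that defines Tregs, measured 73.2 to 132 FPKM over the libraries, and Cd3e, a chain of the T-cell receptor complex, 579 to 830.0 FPKM.

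**Figure D1:**
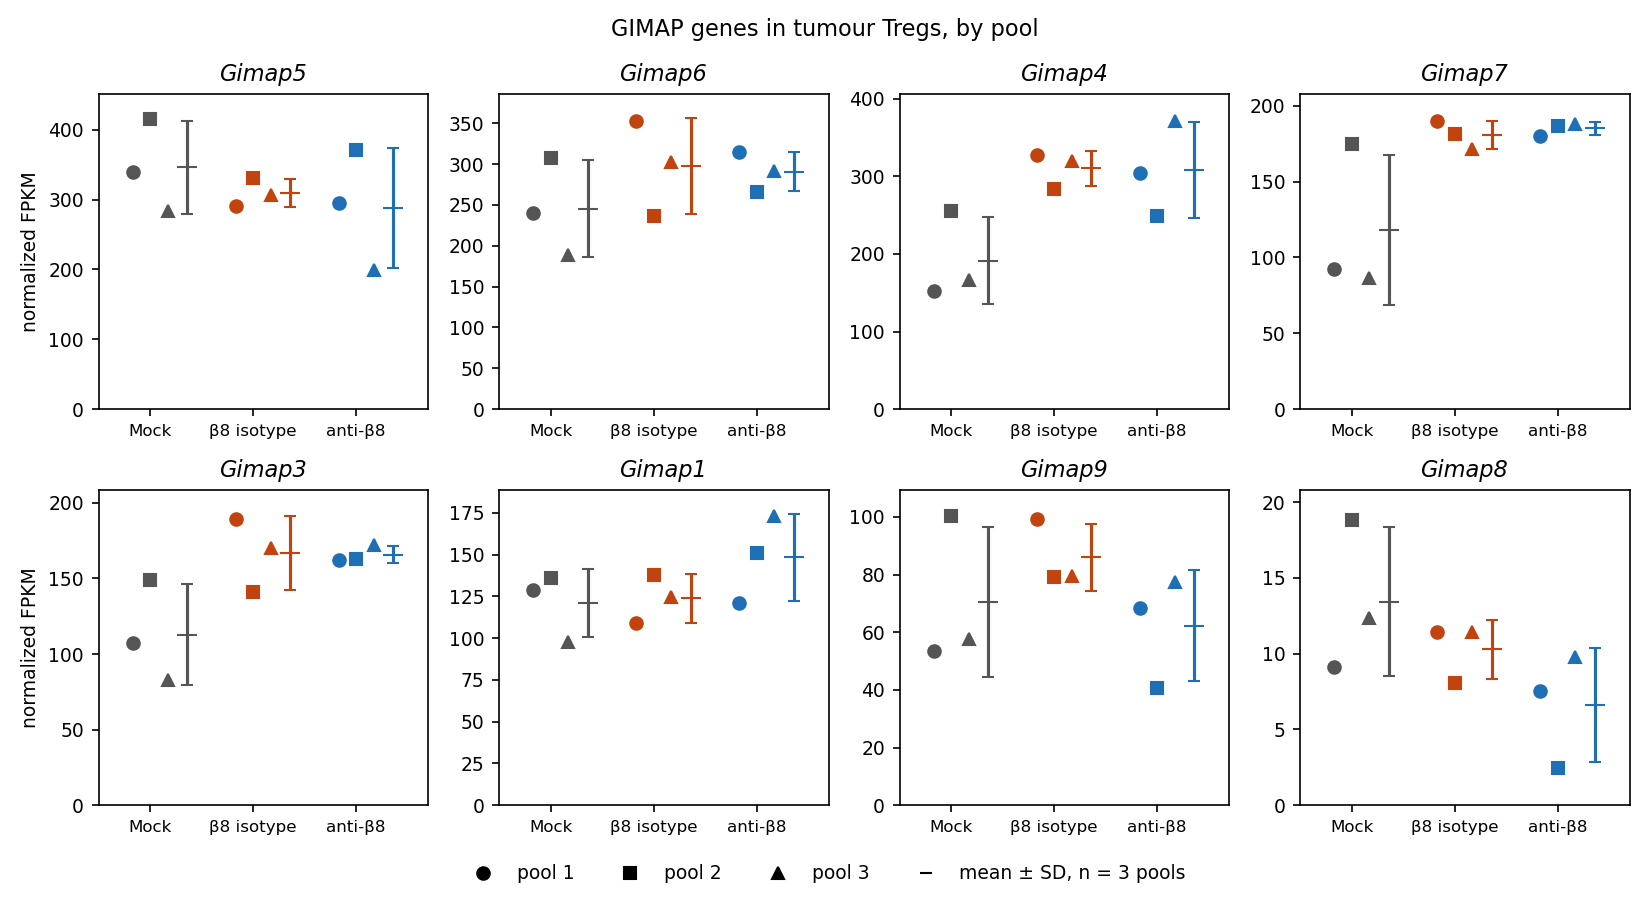
Normalized FPKM (linear axis from 0, scaled for each gene) of the 8 GIMAP genes in each pool of the Mock, β8 isotype and anti-β8 groups, with the marker shape giving the pool number and the bar the mean ± SD of 3 pools. Mock pool 2 is the highest Mock pool in all 8 panels, and the other Mock pools of Gimap3, Gimap4 and Gimap7 lie below every pool from β8 tumours.

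In β8 isotype against Mock, the group of Gimap4, Gimap7 and Gimap3 stood furthest above Mock, and no member passed the test. Gimap4 measured 152, 256 and 167 FPKM in Mock pools 1 to 3 and 327, 284 and 319 FPKM in β8 isotype pools 1 to 3. Every β8 isotype pool was above every Mock pool, with a log2 difference of 0.73 ± 0.21 (SE, n = 3 pools per group, 95% confidence interval 0.27 to 1.19, limma adjusted p = 0.456). Gimap7, whose human counterpart forms dimers that raise GTP hydrolysis, measured 92.7, 175 and 86.6 FPKM in the Mock pools and 189.9, 182 and 171 FPKM in the β8 isotype pools. The groups overlapped through Mock pool 2 alone, and the log2 difference was 0.69 ± 0.23 (interval 0.17 to 1.20, limma adjusted p = 0.638). Gimap3, which in mice acts on the segregation of mitochondrial DNA, measured 107, 149 and 83.1 FPKM in the Mock pools and 189.6, 141 and 170.2 FPKM in the β8 isotype pools. The overlap was between Mock pool 2 and β8 isotype pool 2, and the log2 difference was 0.59 ± 0.21 (interval 0.13 to 1.05, limma adjusted p = 0.660). In bulk libraries such as these, fewer cells expressing a gene and less RNA of it per cell cannot be told apart.

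The other members differed less. Gimap6 measured 241, 308 and 188 FPKM in the Mock pools and 353, 237 and 303 FPKM in the β8 isotype pools, overlapping groups with a log2 difference of 0.29 ± 0.20 (interval -0.15 to 0.72). Gimap9 measured 53.6, 100.3 and 57.5 FPKM in the Mock pools and 99.3, 79.2 and 79.5 FPKM in the β8 isotype pools, with a log2 difference of 0.33 ± 0.30 (interval -0.32 to 0.99). In both genes Mock pool 2 was within or above the range of the β8 isotype pools. Gimap5, the near copy of Gimap3, measured 339, 415 and 284 FPKM in the Mock pools and 291, 331 and 307 FPKM in the β8 isotype pools, and its log2 difference was below 0 at -0.14 ± 0.21 (interval -0.62 to 0.33). Gimap1 measured 129, 136 and 97.6 FPKM in the Mock pools and lay within 109 to 138 FPKM in the β8 isotype pools. Its log2 difference was 0.04 ± 0.19 (interval -0.38 to 0.47), and -0.025 with upper quartile scaling of the unnormalized table. Gimap8 differed by -0.31 ± 0.47 (interval -1.36 to 0.73). The limma adjusted p was 1.00 for each of these members.

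Counted over the family, 6 of 8 members were above 0, beside 50.8% of all genes. The median log2 difference was 0.31 over the members and 0.0087 over all genes. With 0 of 8 members past the adjusted threshold, the background was 0.00796%, or 1 of 12555 genes. At an unadjusted p under 0.05, 3 of 8 members (Gimap3, Gimap4 and Gimap7) were higher, against 2.99% of all genes, and 0 were lower, against 2.58%. Pools did not overlap for 1 of 8 members in the higher direction, against 8.98% of all genes, and for 0 in the lower direction, against 8.47%. Gimap4 was at an unadjusted p under 0.05 with any 1 pool left out. Gimap7 was not without Mock pool 1, Gimap3 was not without β8 isotype pool 1, neither was without Mock pool 3, and Gimap6 joined them without Mock pool 2.

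**Figure D2:**
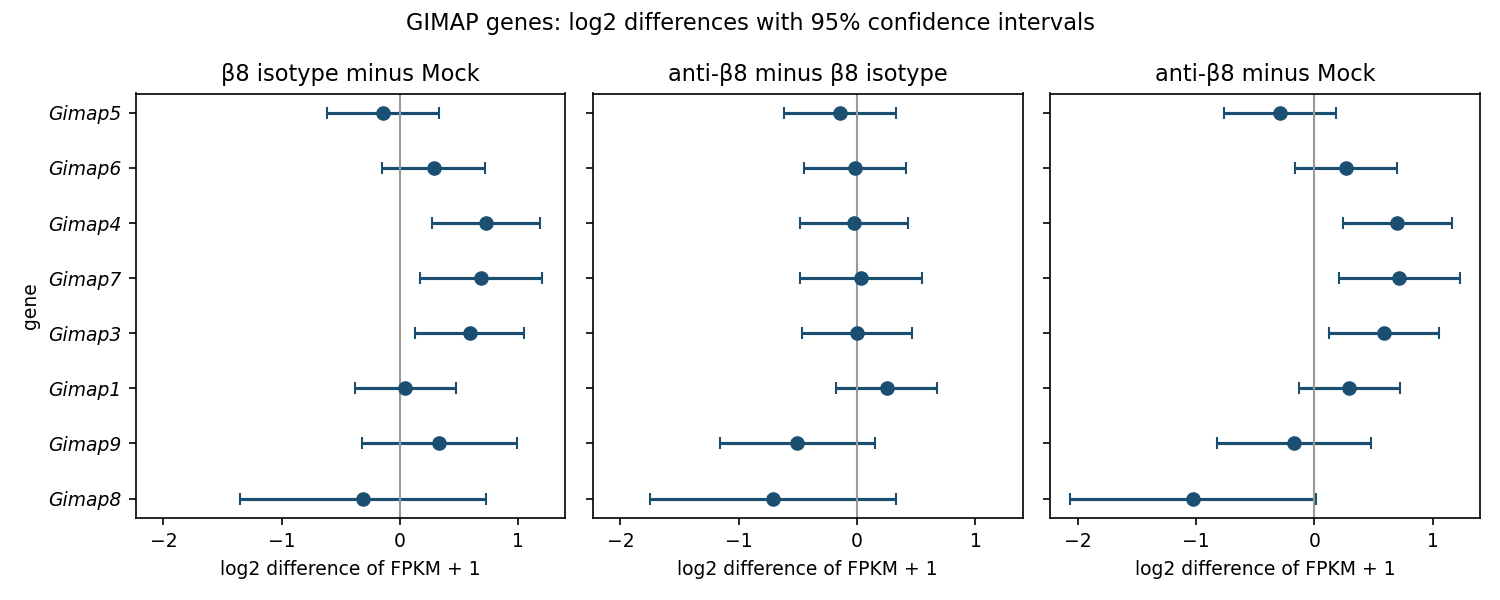
Log2 differences of FPKM + 1 (horizontal axis) with 95% confidence intervals from the limma model for each GIMAP gene (vertical axis, ordered by mean level) in the 3 comparisons. The intervals of Gimap4, Gimap7 and Gimap3 lie above 0 in both comparisons with Mock, and every interval of anti-β8 minus β8 isotype spans 0.

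Anti-β8 against β8 isotype, the comparison in which both groups carried β8 tumours, asks what the antibody adds. Gimap3, Gimap4, Gimap6 and Gimap7 differed by little between these groups. Gimap4 measured 304, 248 and 372 FPKM in anti-β8 pools 1 to 3, a range that enclosed the β8 isotype pools, with a log2 difference of -0.03 ± 0.21 (interval -0.48 to 0.43, limma adjusted p = 0.975). Gimap3 measured 162, 163 and 172 FPKM in anti-β8 and Gimap7 180.2, 187 and 188 FPKM, so that the anti-β8 pools of these genes lay close together. Their log2 differences were -0.0005 ± 0.21 for Gimap3 (interval -0.46 to 0.46) and 0.03 ± 0.23 for Gimap7 (interval -0.48 to 0.55). Gimap6 measured 314, 266 and 291 FPKM in anti-β8, all within the range of the β8 isotype pools, with a log2 difference of -0.02 ± 0.20 (interval -0.45 to 0.42). These intervals leave room for differences of up to 0.55 on the log2 scale.

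Gimap9 and Gimap8 had the lowest log2 differences of the family in this comparison. Gimap9 measured 68.4, 40.6 and 77.6 FPKM in anti-β8, and every one of these pools lay below every β8 isotype pool. The gap was narrow, from 77.6 FPKM in anti-β8 pool 3 to 79.2 FPKM in β8 isotype pool 2, and the log2 difference was -0.50 ± 0.30 (interval -1.16 to 0.15, limma adjusted p = 0.557). Gimap8 measured 11.4, 8.05 and 11.4 FPKM in the β8 isotype pools and 7.54, 2.45 and 9.80 FPKM in anti-β8, with a log2 difference of -0.71 ± 0.47 (interval -1.75 to 0.33, limma adjusted p = 0.597). In both genes the lowest value was that of anti-β8 pool 2. Gimap5 measured 295, 370.2 and 199 FPKM in anti-β8, the widest spread of any group for that gene, with a log2 difference of -0.15 ± 0.21 (interval -0.62 to 0.33). Gimap1 measured 109, 138 and 125 FPKM in the β8 isotype pools and 121, 151 and 173 FPKM in anti-β8, with a log2 difference of 0.25 ± 0.19 (interval -0.18 to 0.68).

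No member passed in this comparison, against a background of 0.0637%, or 8 of 12555 genes, and none reached an unadjusted p under 0.05 in either direction, against 3.97% of all genes higher and 6.2% lower. The pools of 1 of 8 members, Gimap9, did not overlap in the lower direction, against 7.63% of all genes, and 0 of 8 in the higher direction, against 7.34%. The median log2 difference of the members was -0.02 and that of all genes -0.036. Without anti-β8 pool 3, Gimap8 and Gimap9 reached an unadjusted p under 0.05. Without anti-β8 pool 2, which held the lowest value of both genes, their log2 differences shrank to -0.22 for Gimap8 and -0.23 for Gimap9. With 1 pool left out they ranged from -1.04 to -0.22 for Gimap8 and from -0.69 to -0.23 for Gimap9. Fewer genes were detected in anti-β8 pools 2 and 3, where 9772 and 9283 genes reached 1 FPKM in the unnormalized table, against 11785 to 12177 in the other 7 libraries. With these pools left out anti-β8 is a single library, assumed to vary like the pools of the other groups, and the log2 difference of Gimap1 was -0.03, that of Gimap7 -0.0052 and that of Gimap6 0.098, on the other side of 0 in each case.

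Anti-β8 against Mock shares its Mock pools with the first comparison and its anti-β8 pools with the second, so it adds no independent count. Gimap4 differed by 0.70 ± 0.21 (SE, n = 3 pools per group, interval 0.25 to 1.16, limma adjusted p = 0.216), Gimap7 by 0.72 ± 0.23 (interval 0.21 to 1.23, limma adjusted p = 0.249) and Gimap3 by 0.59 ± 0.21 (interval 0.13 to 1.05, limma adjusted p = 0.270). Every anti-β8 pool of Gimap3 and Gimap7 was above every Mock pool, and Gimap4 overlapped through anti-β8 pool 2 at 248 FPKM and Mock pool 2 at 256 FPKM. Gimap8 had the lowest difference, from 9.14, 18.8 and 12.3 FPKM in the Mock pools to 7.54, 2.45 and 9.80 FPKM in anti-β8, a log2 difference of -1.03 ± 0.47 (interval -2.07 to 0.02, limma adjusted p = 0.362). The others differed by 0.29 ± 0.19 (Gimap1), 0.27 ± 0.20 (Gimap6), -0.17 ± 0.30 (Gimap9) and -0.29 ± 0.21 (Gimap5). Of the 8 members 0 passed, against 0.183% of all genes, or 23. At an unadjusted p under 0.05, 3 of 8 were higher (Gimap3, Gimap4 and Gimap7), against 6.09% of all genes, and 0 were lower, against 7.87%. Pools did not overlap in the higher direction for 2 of 8, against 7.89%, and in the lower direction for 0, against 8.4%. Without Mock pool 3 only Gimap4 remained at an unadjusted p under 0.05, with log2 differences of 0.39 for Gimap3 and 0.54 for Gimap7. With anti-β8 pools 2 and 3 left out, the single remaining anti-β8 library again left only Gimap4, while the log2 differences were 0.56 for Gimap3, 0.70 for Gimap4 and 0.68 for Gimap7. Gimap8, lower, joined without Mock pool 1, without anti-β8 pool 3 or with upper quartile scaling, Gimap5, lower, without anti-β8 pool 2, and Gimap6, higher, without Mock pool 2. With 1 pool left out the Gimap8 log2 difference ranged from -1.36 to -0.53, the latter without anti-β8 pool 2. Gimap3 was lost with array weights in this comparison, and without trend and robust settings in both comparisons with Mock.

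The shares of 5 of the 8 members (Gimap3, Gimap4, Gimap5, Gimap7 and Gimap8) separated the Mock pools from the pools of β8 tumours, and those of Gimap1, Gimap6 and Gimap9 overlapped, as did the family total. The summed FPKM of the 8 genes was 1123, 1557 and 976 in the Mock pools, 1570.4, 1399.6 and 1486 in the β8 isotype pools and 1454, 1428 and 1482 in anti-β8. Mock pool 2 was as high as the pools from β8 tumours, and the other Mock pools were lower. Gimap5 made up 30.2%, 26.7% and 29.1% of this sum in Mock, 18.5%, 23.7% and 20.6% in the β8 isotype pools, and 20.3%, 25.9% and 13.4% in anti-β8. Gimap4 made up 13.5%, 16.4% and 17.1% in the Mock pools, 20.8%, 20.3% and 21.5% in the β8 isotype pools, and 20.9%, 17.4% and 25.1% in anti-β8. Thus every Mock pool, Mock pool 2 included, had a higher share of Gimap5 and a lower share of Gimap4 than every pool from a β8 tumour. Gimap3 made up 8.51% to 9.55% in the Mock pools, 10.1% to 12.1% in the β8 isotype pools and 11.2% to 11.6% in anti-β8, also without overlap with Mock. The Gimap8 share was 0.814% to 1.26% in the Mock pools and 0.171% to 0.770% in the 6 pools from β8 tumours. The overlapping Gimap1 share was 8.74% to 11.5% in the Mock pools and 6.94% to 11.7% in the pools from β8 tumours. The shares of a library sum to the whole, so higher shares of some members lower those of others. In FPKM, Gimap5 overlapped, at 284 to 415 in the Mock pools and 199 to 370 in the pools from β8 tumours. These shares were examined after the values were known and carry no test, and no matching count over all genes was made.

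**Figure D3:**
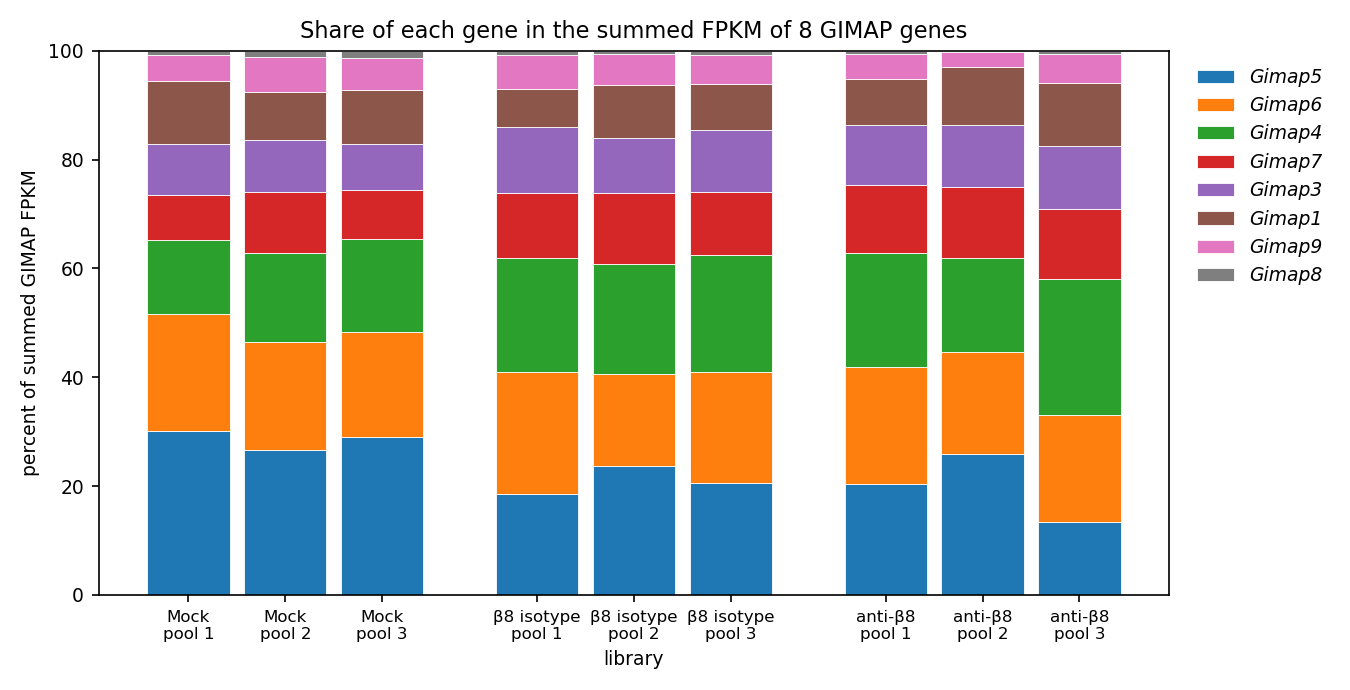
Share of each GIMAP gene in the summed normalized FPKM of the 8 genes (vertical axis, percent, stacked to 100) in each of the 9 libraries. The Gimap5 segment is 26.7% to 30.2% in the Mock pools and 13.4% to 25.9% in the pools from β8 tumours.

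The contrast between the near copies showed the same order. On the log2 scale, Gimap3 minus Gimap5 was -1.65, -1.48 and -1.76 in the Mock pools, -0.61, -1.23 and -0.85 in the β8 isotype pools, and -0.86, -1.18 and -0.21 in anti-β8. Gimap5 was thus the more abundant of the pair in every pool, by more in each Mock pool than in any other pool. Gimap4 minus Gimap5 was -1.15, -0.70 and -0.76 in the Mock pools, 0.17, -0.22 and 0.06 in the β8 isotype pools, and 0.04, -0.57 and 0.90 in anti-β8. A ratio within a library shows an unequal difference between genes and not which of them differed, and the Gimap3 ratio carries the uncertainty of shared fragments.

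Pool-to-pool variation ran through the family. Mock pool 2 was the highest Mock pool in 8 of 8 members, whereas it was the highest in 32.4% of all genes. In β8 isotype, pool 1 was highest in 5 of 8 members, against 35.3% of all genes, and in anti-β8, pool 3 was highest in 6 of 8, against 36.3%. Over the 9 libraries the log2 levels of Gimap3 and Gimap7 correlated at 0.94 (Pearson's r), those of Gimap4 and Gimap7 at 0.91, of Gimap3 and Gimap6 at 0.90 and of Gimap3 and Gimap4 at 0.895. Gimap5 correlated below 0 with each of the 7 other members, at -0.40 with Gimap4 and -0.12 with Gimap3, and Gimap8 correlated below 0 with Gimap1 (-0.35), Gimap7 (-0.21) and Gimap3 (-0.18) as well. That did not hold over the 7 libraries without anti-β8 pools 2 and 3. There Gimap5 was at -0.087 with Gimap4 and above 0 with every other member, from 0.061 with Gimap3 to 0.746 with Gimap1. As deviations from the group means over all 9 libraries, 25 of 28 pairs of members correlated above 0, and the others were Gimap5 with Gimap4 (-0.195), Gimap8 (-0.52) and Gimap9 (-0.25). Over the 6 Mock and β8 isotype libraries alone, these deviations correlated above 0 in every pair except Gimap1 with Gimap8 (-0.025). These are descriptions over few libraries that share normalization and, for Gimap3 and Gimap5, fragments.

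Among 10386 other named genes, 38 correlated at 0.8 or more with the mean log2 level of the members over the 9 libraries. How many unrelated genes would reach this over 9 libraries was not estimated, so the count is a description. The genes named below were picked by the correlation itself. The most alike was Cbfb, the subunit that RUNX transcription factors bind (r = 0.952, and 0.957 over the 7 libraries without anti-β8 pools 2 and 3). Cbfb measured 10.03, 25.4 and 7.51 FPKM in the Mock pools, 23.7, 24.2 and 25.5 FPKM in the β8 isotype pools, and 20.6, 9.72 and 21.7 FPKM in anti-β8. It was thus low in Mock pools 1 and 3 and in anti-β8 pool 2, the libraries with the lowest mean log2 level of the members (6.63, 6.52 and 6.74). Next came Lims1, an adaptor of integrin-linked kinase (0.951 and 0.953), Marveld2, which encodes the junction protein tricellulin (0.910 and 0.940), and Apobec3, a cytidine deaminase that restricts retroviruses (0.888 and 0.883). Adrm1, a ubiquitin receptor of the proteasome (0.888 and 0.920), Rfwd2, an E3 ubiquitin ligase (0.885 and 0.956), Arl5a, an ARF-like GTPase (0.882 and 0.938), and Capza1, an actin capping subunit (0.878 and 0.862), completed the 8 most alike. Marveld2 measured at most 2.95 FPKM, so its likeness rests on low values.

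Other genes in and around the cluster were read for comparison. Of 19 other genes tested inside the cluster or within 500 kb of it, 7 were above 0 in β8 isotype against Mock (median -0.15), and 0 passed. The 7 included Gimap1os and Gm28053, described below, which overlap members. Malsu1, a mitochondrial ribosome assembly factor, had the smallest p of the 19, at -0.57 ± 0.22 (limma adjusted p = 0.747). In anti-β8 against Mock 11 of 19 lay above 0, with a median of 0.08. Inside the cluster, Gimap1os, a processed transcript on the minus strand that overlaps Gimap1, measured 8.31, 17.0 and 15.2 FPKM in the Mock pools, 19.3, 26.1 and 20.5 FPKM in the β8 isotype pools, and 26.6, 38.3 and 23.7 FPKM in anti-β8. Every pool from a β8 tumour was above every Mock pool, with log2 differences of 0.71 ± 0.33 (limma adjusted p = 0.907) for β8 isotype and 1.10 ± 0.33 (limma adjusted p = 0.221) for anti-β8. The libraries do not mark strand, so fragments of Gimap1os and Gimap1 cannot be told apart where the genes overlap. Gm28053, a gene model that runs from Gimap7 through Gimap1 to Gimap5, measured 1.10 to 11.2 FPKM, and fragments from it can be shared with those members.

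**Figure D4:**
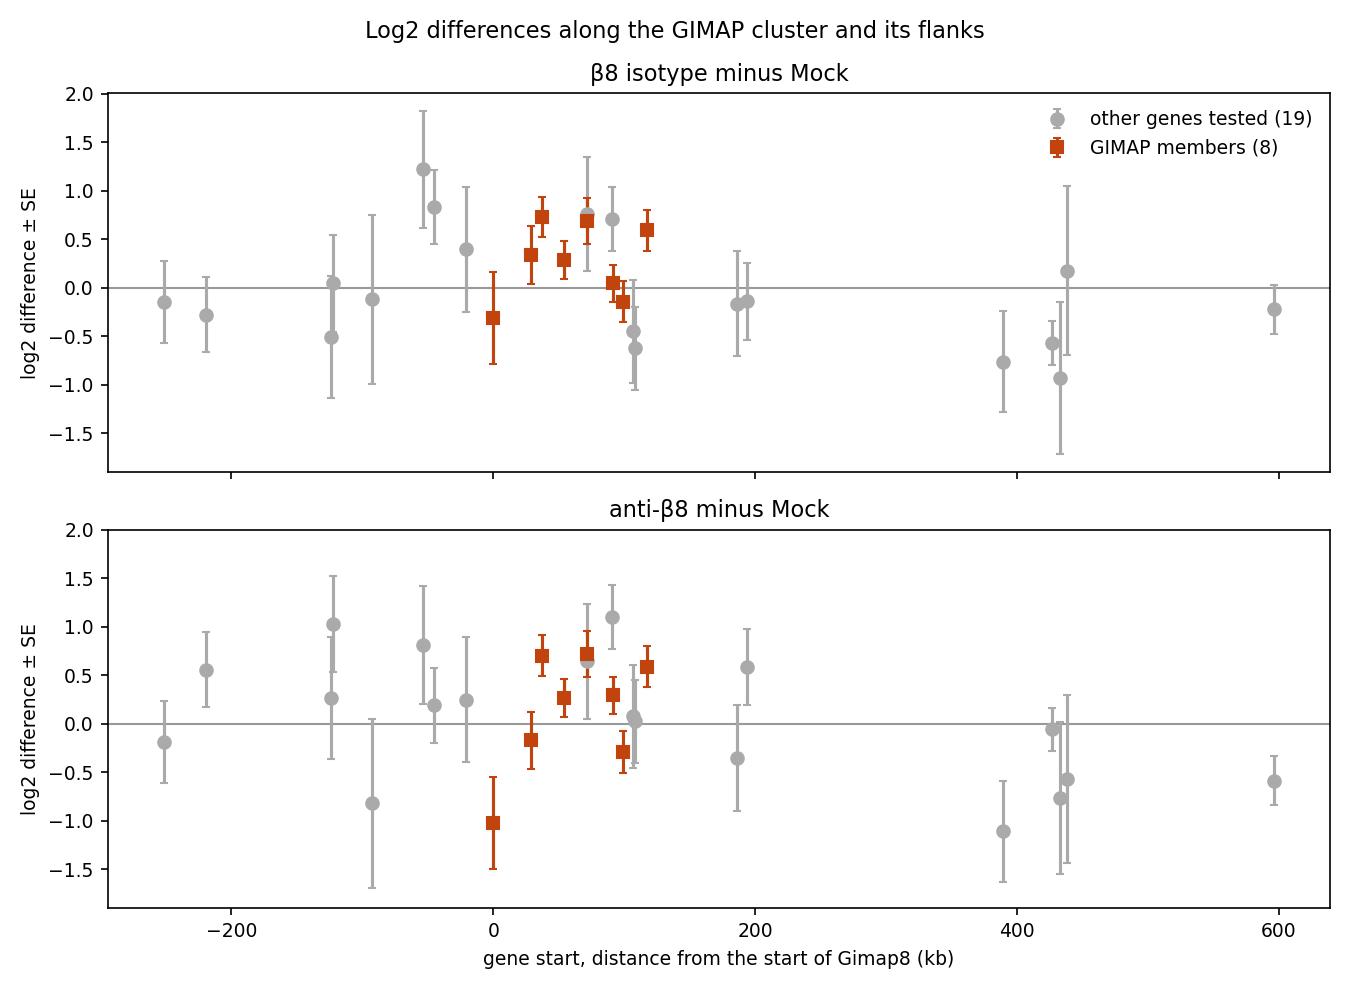
Log2 differences ± SE (vertical axis) of the 8 GIMAP genes (squares) and 19 other tested genes (circles) by the distance of their lowest coordinate from that of Gimap8 (horizontal axis, kb), for β8 isotype minus Mock and anti-β8 minus Mock. Members with values near 0.7 stand beside members at or below 0 within the same cluster.

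The start regions of the near copies are shown because their coding sequences are nearly the same. Their log2 differences against Mock lay on opposite sides of 0 for β8 isotype and for anti-β8. The Gimap5 intervals spanned 0 in both, at -0.62 to 0.33 and -0.76 to 0.18, so a difference in direction is not established. The windows are from RefSeq (GRCm38.p6), from 250 bases before to 50 bases after the start of the gene, and all 8 members had 1 or more. Capitals mark matches, on either strand, to the motifs searched: GTAAACA (FOXO), CCACCC (KLF), TGTGGTT (RUNX), ATCAAAG (TCF7 and LEF1), CCGGAAG (ETS) and CAGACA (SMAD).
Gimap3 start region, chr6:48770802-48771101, minus strand: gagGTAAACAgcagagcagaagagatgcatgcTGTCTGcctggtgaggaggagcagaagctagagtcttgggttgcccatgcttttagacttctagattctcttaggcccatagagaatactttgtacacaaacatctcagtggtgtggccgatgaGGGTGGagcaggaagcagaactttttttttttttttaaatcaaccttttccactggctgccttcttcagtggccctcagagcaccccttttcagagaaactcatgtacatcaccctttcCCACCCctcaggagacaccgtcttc
Gimap5 start region, chr6:48745947-48746246, plus strand: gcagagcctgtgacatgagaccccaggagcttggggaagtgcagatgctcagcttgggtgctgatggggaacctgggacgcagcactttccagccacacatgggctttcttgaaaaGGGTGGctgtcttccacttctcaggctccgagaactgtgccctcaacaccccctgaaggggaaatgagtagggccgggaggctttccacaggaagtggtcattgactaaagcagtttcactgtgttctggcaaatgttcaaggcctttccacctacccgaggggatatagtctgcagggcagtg
The Gimap3 window held 4 matches, of FOXO, KLF (2 matches) and SMAD, and the Gimap5 window held 1, of KLF. Of 32851 windows of the same length, 3.65% held the FOXO letters, 31.5% the KLF letters and 21% the SMAD letters. Gimap4 also held KLF letters, and the windows of Gimap1, Gimap6 and Gimap7 held none of the 6 motifs, so Gimap3, Gimap4 and Gimap7 had no searched motif in common. The Gimap3 and Gimap5 windows were identical at 68.3% of aligned bases, against 55.6% to 68.3% over the 27 other pairs of members. A match is a description of the letters and not a binding site. Whether these windows bear on the levels was not tested.

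Genes of pathways in which GIMAP proteins take part were read alongside. In the list of the BCL2 family, which controls cell survival and some of whose proteins bind Gimap3 and Gimap5 in mice, 4 of 14 members were above 0 in β8 isotype against Mock (median -0.32), and 0 passed. Its smallest p belonged to Bcl2a1b, an anti-apoptotic member at 476 ± 30.8 FPKM in the Mock pools and 363 ± 4.81 in the β8 isotype pools (log2 difference -0.39 ± 0.11, limma adjusted p = 0.452), and to Pmaip1, the pro-apoptotic NOXA, at 122 ± 3.67 and 71.1 ± 9.60 FPKM (SD, n = 3 pools; log2 difference -0.78 ± 0.24, limma adjusted p = 0.549). In anti-β8 against Mock 0 of 14 passed, with Pmaip1 at -1.41 ± 0.24 (limma adjusted p = 0.0537). In the list of ATG8 proteins and autophagy genes, which holds the GABARAP relatives that Gimap6 binds, 5 of 15 lay above 0 in β8 isotype against Mock (median -0.08), 9 of 15 in anti-β8 against β8 isotype (median 0.14) and 6 of 15 in anti-β8 against Mock (median -0.10), with 0 passing in each. Rb1cc1, a subunit of the complex that starts autophagy, had the smallest p of the list in anti-β8 against Mock, at -0.93 ± 0.25 (limma adjusted p = 0.180). Gabarapl2 itself measured 102 ± 9.74 FPKM in the Mock pools, 96.4 ± 3.80 in the β8 isotype pools and 80.5 ± 22.1 in anti-β8.

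Resting T cells are known for high GIMAP levels. In the list of resting and naive T-cell genes, 8 of 20 were above 0 in β8 isotype against Mock (median -0.05), and 0 passed. Ms4a4b, a membrane protein of T cells, measured 84.7 ± 9.20 FPKM in the Mock pools and 211 ± 11.2 in the β8 isotype pools (log2 difference 1.31 ± 0.23, limma adjusted p = 0.161). Ccr7, the lymph node homing chemokine receptor, fell in anti-β8 against Mock, from 713 ± 59.2 to 342 ± 62.7 FPKM (SD, n = 3 pools; log2 difference -1.07 ± 0.15, limma adjusted p = 0.0252), the 1 member of the list that passed in any comparison. Another GTPase family, the interferon-inducible GTPases, lay above 0 in 16 of 17 genes in β8 isotype against Mock (median 0.77, 0 passed), beside 50.8% of all genes, and in 16 of 17 in anti-β8 against Mock (median 0.84, 0 passed), beside 48.3%. At an unadjusted p under 0.05, 9 and 11 of the 17 were higher, against 2.99% and 6.09% of all genes. Igtp measured 139 ± 27.2 FPKM in the Mock pools, 248 ± 39.9 in the β8 isotype pools and 263 ± 48.3 in anti-β8, and Gbp2 19.5 ± 3.45, 45.0 ± 10.1 and 57.7 ± 19.1 FPKM.

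Marker genes of cell types were summed in the same libraries. The summed level of 9 T-cell markers was 5052 to 5294 FPKM in the Mock pools, 6140 to 6376 in the β8 isotype pools and 5642 to 6273 in anti-β8, and 8 of 9 lay above 0 in β8 isotype against Mock with 0 passing. Per 100 FPKM of these markers, the family total was 23.6 ± 5.22 FPKM in the Mock pools, 23.7 ± 1.15 in the β8 isotype pools and 24.6 ± 0.856 in the anti-β8 pools (SD, n = 3 pools). On that scale Gimap4 was 3.01, 4.83 and 3.30 in the Mock pools, 5.21, 4.63 and 5.01 in the β8 isotype pools and 5.18, 4.40 and 5.93 in anti-β8, so that Mock pool 2 overlapped the other groups. Gimap5 was 6.71, 7.85 and 5.60 in the Mock pools and 4.63, 5.39 and 4.81 in the β8 isotype pools, with every Mock pool above every β8 isotype pool. In anti-β8 it was 5.03, 6.56 and 3.17, and pool 2 overlapped the Mock pools. In FPKM, Gimap5 overlapped between Mock and β8 isotype, at 339, 415 and 284 against 291, 331 and 307. The marker sum that divides it was higher in the β8 isotype pools than in the Mock pools. The 7 Treg markers summed to 1535 to 1845 FPKM in the Mock pools, 2140 to 2511 in the β8 isotype pools and 1782 to 1823 in anti-β8. Tnfrsf18 (group means 851, 1142 and 949) and Ctla4 (449, 717 and 503) gave most of this sum. In β8 isotype against Mock 6 of 7 lay above 0, against 50.8% of all genes. In anti-β8 against β8 isotype 1 of 7 did, against 47.1%, with 0 passing in either. Foxp3 was the exception in both, with log2 differences of -0.09 ± 0.20 and 0.40 ± 0.20.

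Of the other cell types known to express GIMAP genes, B-cell markers (6 of 7 tested) summed to 19.7 to 47.4 FPKM in the Mock pools, 28.8 to 104 in the β8 isotype pools and 109 to 160.0 in anti-β8. In each comparison 6 of 6 lay above 0, with 0 passing. The median log2 difference was 0.72 in β8 isotype against Mock, 1.39 in anti-β8 against β8 isotype and 2.34 in anti-β8 against Mock. At an unadjusted p under 0.05, 1, 3 and 6 of 6 were higher in that order, against 2.99%, 3.97% and 6.09% of all genes. NK-cell markers (3 of 5 tested) summed to 1.69 to 3.15, 2.12 to 3.67 and 5.48 to 7.57 FPKM in the same order. Endothelial markers (2 of 8 tested, Pecam1 and Egfl7) summed to 11.2 to 16.8, 10.4 to 13.0 and 12.8 to 16.1 FPKM, and 0 of 2 lay above 0 in β8 isotype against Mock. The CD8 T-cell markers summed to 17.5 to 30.0, 20.8 to 39.5 and 26.7 to 53.7 FPKM. In each comparison 2 of 2 lay above 0, with 0 passing. Their median log2 difference was 0.99 in β8 isotype against Mock, 0.57 in anti-β8 against β8 isotype and 1.56 in anti-β8 against Mock. Fibroblast markers (3 of 6 tested) summed to 5.85 to 9.55 FPKM in the Mock pools, 45.6 to 147 in the β8 isotype pools and 17.8 to 66.3 in anti-β8, with 3 of 3 above 0 and a median log2 difference of 3.23 in β8 isotype against Mock. Myeloid markers (6 of 7 tested) summed to 293 to 575, 187 to 717 and 406 to 704 FPKM and tumour and epithelial markers (4 of 5 tested) to 34.6 to 51.4, 42.8 to 59.9 and 29.4 to 118 FPKM. No listed marker was at 0 in all libraries of the unnormalized table. The part of these cell types in the GIMAP levels was not tested.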

How the data were processed

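RNA of sorted tumour Tregs was made into libraries with SMART-Seq v4 Ultra and Nextera XT kits, per the labels' protocols, without molecular identifiers or strand marking. The authors deposited FPKM, unnormalized (53251 genes) and normalized (16409 genes), per the file headers. Per the submitters' processing notes, the build was GRCm38 and the tools included RSEM 1.3.1, STAR 2.6.1a, Cufflinks, Picard and Trim Galore 0.5.0, with no roles given. The highest 8000 sorted values of the 9 normalized libraries differ by at most 0.0907%, so over that range the table behaves as quantile normalized. Low values differ between libraries. Anti-β8 pools 2 and 3 hold no zeros, with lowest values of 0.052 and 0.0936, and the other libraries hold 1557 to 2119 zeros. Read totals are not used here, so the depth is unknown. FPKM are not counts, and no count model was fitted.

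The normalized table was used, with genes of at least 1 FPKM in at least 3 of 9 libraries (12555). The 3 comparisons came from 1 model of log2(FPKM + 1) over the 9 libraries, fitted with limma 3.58.1 under R 4.3.3, with trend and robust empirical Bayes, two-sided tests and Benjamini-Hochberg adjustment over all genes at 0.05. That scale understates differences of low genes. The SE and 95% intervals are from this model. Each p-value weighs a difference of group means against the spread between pools. That spread was estimated over all 3 groups together and moderated across genes. The model code was run on simulated data with independent normal errors and, for each gene, equal spread in the 3 groups. That run does not cover pools of low detection, and no result here rests on it. The members, gene lists, marker lists and motifs were chosen with earlier results of these data known. The text names the 8 members, the 8 genes most alike, genes past the threshold or among those of smallest p in some of the lists, and Foxp3. Other lists are given by counts and summed levels. Cd3e, Gimap1os, Gm28053 and the choice of the ratios were picked outside that rule, after their values were seen. Coordinates and transcripts are from GENCODE M21, which held 99.8% of the gene identifiers, and it gave back 26 symbols that a spreadsheet had made into dates. Alternatives were the unnormalized table, upper quartile scaling, a pseudocount of 0.1, other filters, the replicate number as a block, fewer libraries, other variance settings, array weights and leaving out each pool.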

Additional observations from a re-analysis of the deposited data

How the results depend on the processing

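Under 19 alternatives 0 of the 8 members passed an adjusted p of 0.05 in any comparison. The lowest limma adjusted p was 0.0645 (Gimap7, anti-β8 against Mock, without Mock pool 2), and 0.0656 for Gimap4 in β8 isotype against Mock with array weights. Of 24 log2 differences of members, 16 kept their sign throughout, among them those of Gimap3, Gimap4 and Gimap7 against Mock, and 25 of 456 values under alternatives took the other sign. For these the cause was not tested. In β8 isotype against Mock, Gimap1 was -0.025 with upper quartile scaling and -0.10 to 0.14 with 1 pool left out. In anti-β8 against β8 isotype, the unnormalized table gave 0.053 for Gimap3, 0.012 for Gimap4 and 0.0035 for Gimap6, upper quartile scaling gave 0.039 for Gimap3, and array weights gave 0.016 for Gimap6. With anti-β8 pools 2 and 3 left out, Gimap1 was -0.025, Gimap6 0.098 and Gimap7 -0.0052 there, and Gimap9 was 0.015 in anti-β8 against Mock. With 1 pool left out, the ranges in anti-β8 against β8 isotype were -0.12 to 0.096 for Gimap3, -0.17 to 0.12 for Gimap4, -0.35 to 0.097 for Gimap5, -0.17 to 0.11 for Gimap6 and -0.0050 to 0.068 for Gimap7, and that of Gimap9 in anti-β8 against Mock was -0.35 to 0.11. Members at an unadjusted p under 0.05 numbered 1 to 4, 0 to 2 and 1 to 4 in the 3 comparisons with 1 pool left out, and 1 in anti-β8 against Mock with anti-β8 pools 2 and 3 left out. That fit has a single anti-β8 library, assumed to vary like the other groups, and its log2 differences were 0.56 for Gimap3 and 0.68 for Gimap7.

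Counts over all genes moved more. In β8 isotype against Mock, 1 gene passed, and 29 did when the fit used these groups' 6 libraries alone, 0 without trend and robust settings, 111 with array weights, 30 with anti-β8 pools 2 and 3 left out and 1 to 2 with 1 pool left out. In anti-β8 against β8 isotype, 8 genes passed, and 2 did in the unnormalized table, 2 with upper quartile scaling, 3 with a pseudocount of 0.1, 3 with 6 libraries, 3 without trend and robust settings and 2 to 142 with 1 pool left out. In anti-β8 against Mock, 23 passed, and 15 did with no filter, 13 without trend and robust settings, 14 with array weights and 9 to 323 with 1 pool left out, the highest without anti-β8 pool 1. With the replicate number as a block, 2, 2 and 15 genes passed in the 3 comparisons, and the same members were at an unadjusted p under 0.05. The numbers share only a label, since deviations of same-numbered pools correlated at -0.040 to 0.046. The unnormalized table and upper quartile scaling moved the median of all genes to -0.20 and -0.21 in anti-β8 against β8 isotype and to -0.15 and -0.22 in anti-β8 against Mock. Single pools have no further replicate, and the unknown depth gives no counting error for Gimap8, the member of lowest level.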
